A study of Mus musculus with 2 samples.

Results

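Cytosolic ribosomal protein genes were compared between wild type mice and TIF1γ Δ/Δ mice, in which the gene for TIF1γ (Trim33) had been inactivated conditionally. The members were all genes with a symbol of Rpl or Rps and a number, with an optional letter a, x, y or l, plus the P stalk genes and Rpsa. Rps6k kinases and pseudogenes were left out. Of 18193 genes with a probe set of their own, 46 were members, 24 of the large and 22 of the small subunit. They held 100 probe sets.

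Each genotype was represented by 1 Affymetrix array of total RNA from bone marrow KLS cells, sorted as negative for lineage markers and positive for c-kit and Sca, a fraction that holds blood stem cells and early progenitors. The array of the TIF1γ Δ/Δ mice is called the mutant array below. The sources used here do not give the driver of the inactivation or the age and number of the mice. With 1 array per genotype there was no replicate check, so no test, SD or standard error is given, and every difference below compares 2 arrays, not 2 genotypes. In a sorted population, fewer cells of a type and less RNA per cell cannot be told apart.

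The ribosome is built from a large and a small subunit, each made of ribosomal RNA and a fixed set of proteins. The small subunit reads the messenger RNA and the large subunit joins the amino acids. Ribosomal protein genes are among the most highly expressed genes of any cell. Their messenger RNAs start with a pyrimidine tract through which mTOR signalling controls their translation. In blood formation they are known for Diamond-Blackfan anaemia, in which loss of 1 copy of a ribosomal protein gene impairs red cell production.

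Values are MAS5 intensities on a linear scale, made by the authors array by array. Differences are log2 intensity on the mutant array minus that on the wild type array, centred on the median of all probe sets measured on both arrays. Probe sets at or above the median signal of their array, 14.4 for wild type and 11.7 for the mutant, were taken as measured. A gene is represented by its probe set with the highest geometric mean intensity over both arrays, called its brightest below. Another probe set can be brighter on a single array, as 1416603_at of Rpl22 was in wild type (6943 and 4997, log2 -0.45) and 1434854_a_at of Rps10 (8061 and 5618, log2 -0.50). The precision of every value is limited by the number of arrays.

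The targeted gene Trim33 read 379 in wild type and 172 in the mutant (log2 -1.12). Of 9 KLS markers listed, 7 had a probe set of their own and all 7 were measured on both arrays, from Procr (486 and 316, log2 -0.60) over Hlf (725 and 710.0, log2 -0.0054) to Kit (384 and 495, log2 0.39) and Cd34 (1398 and 2326, log2 0.76). Markers of neutrophils and macrophages stood at or above the threshold for 19 of 20 genes in wild type and 7 of 20 in the mutant. Their summed intensity was 45278 and 4630.5, of which Mpo alone gave 5497 and 3840. For 12 erythroid markers, of which 9 had a probe set of their own, the sums were 6289.9 and 4199, and the 7 measured on both arrays had a median difference of -1.71. The medians of the B cell (3 measured on both), T and NK cell (2) and megakaryocyte (5) markers were -2.42, -1.62 and 0.62. The part of these transcripts in the ribosomal protein values was not tested.

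The promoters of the members were compared with those of all other genes in the RefSeq promoter table of mouse GRCm38.p6, which spans 250 bases before to 50 bases after each annotated start. Of the 46 members, 40 matched, with 48 windows. The letters CCGGAAG, the core bound by factors of the ETS family, were searched on both strands and stood in 41.7% of the member windows and 8.81% of 32803 other windows. The pyrimidine tract CTCTTT, searched on the strand of the gene within 20 bases of the start, stood in 8.33% and 1.53%, and the tract CTTTTC in 6.25% and 1.42%. Matches of different motifs may overlap each other. Over the whole window, AAGATGG, the core of the YY1 site, stood in 14.6% and 6.33% on both strands, and the TATA box letters TATAA in 27.1% and 24.9%. The median GC content was 57.2% in member and 52.7% in other windows. Shown here are 6 windows from 60 bases before to 10 bases after the start, 5′ to 3′ on the strand of the gene. The first 4 hold CCGGAAG in capitals and belong to members whose differences run from the lowest of all (Rpl37) to just above 0 (Rpl38); the last pair shows a pyrimidine tract in capitals.
Rpl37, chr15:5116553-5116622, plus strand: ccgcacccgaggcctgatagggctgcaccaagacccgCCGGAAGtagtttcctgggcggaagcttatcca
Rpl41, chr10:128549159-128549228, minus strand: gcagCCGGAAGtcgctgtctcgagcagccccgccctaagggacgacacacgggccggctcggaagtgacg
Rps10, chr17:27635235-27635304, minus strand: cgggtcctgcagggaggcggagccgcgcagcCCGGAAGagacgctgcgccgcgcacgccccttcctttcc
Rpl38, chr11:114668520-114668589, plus strand: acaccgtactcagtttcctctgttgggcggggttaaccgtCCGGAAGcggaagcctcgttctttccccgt
Rpl35, chr2:39005122-39005191, minus strand: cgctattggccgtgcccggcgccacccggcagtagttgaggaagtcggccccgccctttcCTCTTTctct
Rpl4, chr9:64173327-64173396, plus strand: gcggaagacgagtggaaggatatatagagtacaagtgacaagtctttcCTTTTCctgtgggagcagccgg

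As a family, ribosomal protein genes were slightly lower on the mutant array. Of the 46 members, 43 were measured on both arrays and 3 on neither. Of the 43, 40 had a difference below 0 (93.0%), against a background of 46.9% of the 10365 genes measured on both arrays. The median was -0.17, beside 0.044 over all measured genes, and the middle 50% of the members lay between -0.35 and -0.082. No member was 2-fold apart, whereas 7.27% of all measured genes were, made up of 2.62% higher and 4.65% lower. At least 1.5-fold lower were 3 members (6.98%, background 13.2%), and none was 1.5-fold higher (background 14.3%). By brightest probe set, the members therefore lay close together, mostly to 1 side of 0. Fewer of them reached a given size than among all genes, but this depended on the probe set rule. Without probe sets of the suffixes _s_at and _x_at, 6 of 38 members were at least 1.5-fold lower, beside 13.2% of all genes. Then 1 was at least 1.5-fold higher, beside 14.7%. All these backgrounds cover genes of every signal, whereas most members were bright. Between geometric means of 4000 and 7000, 69.5% of 151 probe sets of other genes lay below 0, beside 36 of 37 of members. At or above 7000 it was 77.8% of 9, beside 17 of 18. Shares past a fold were not computed by signal. The lean below 0 depended on the scaling. After loess correction of the difference for mean signal the median was -0.059. Then 25 of 43 members (58.1%) lay below 0, beside 48.6% of all genes. That loess curve, used below unless stated otherwise, was fitted on all measured probe sets, including those of the members. Fitted without ribosomal probe sets, it gave a median of -0.090. In that setting 28 of 43 members (65.1%) lay below 0, beside 48.9% of all genes.

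**Figure D1:**
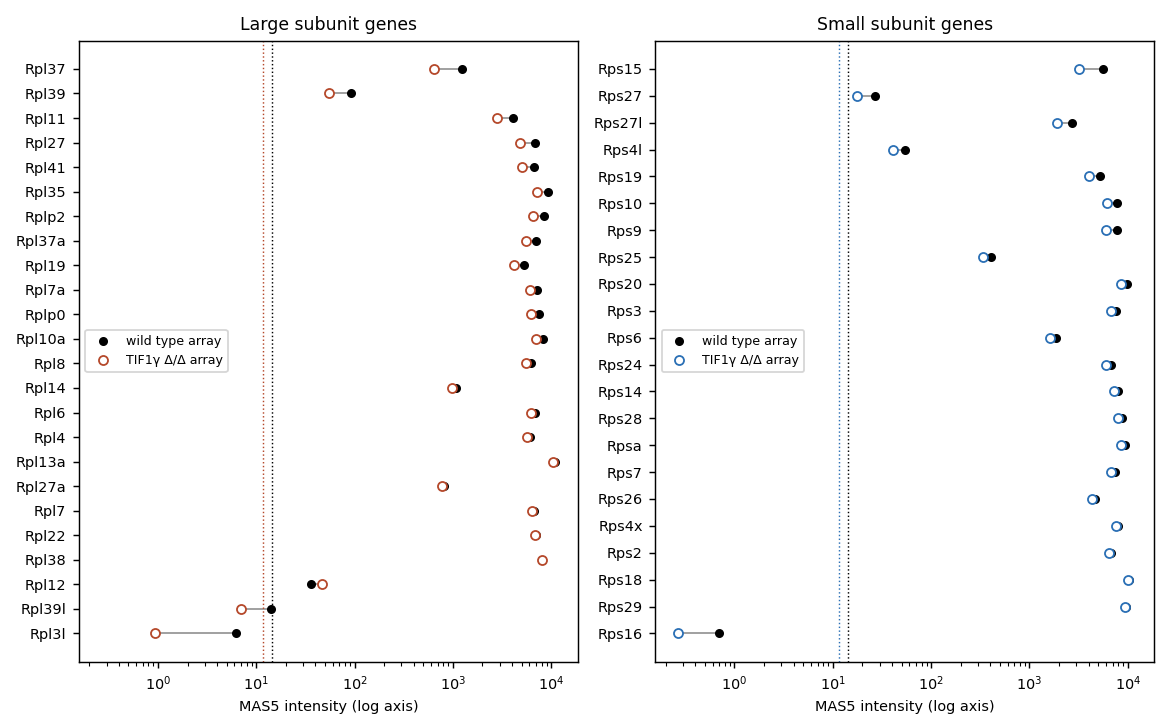
MAS5 intensity of each member's brightest probe set on the wild type array (black) and the mutant array (open), on a log axis, with genes ordered by difference from the lowest at the top and genes measured on neither array at the bottom; dotted lines mark the 2 thresholds. On these uncentred intensities, open points lie left of black points for 42 of the 43 measured members, most by a small distance near the upper end of the axis.

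Most members sat at the upper end of the array. On the wild type array 33 of the 46 had their probe set in the brightest 1% of all probe sets, and on the mutant array 32 did. Of 367 probe sets at or above 4000 on the wild type array, 129 were annotated to a ribosomal protein gene, alone or with other genes.

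In the large subunit, 19 of 22 measured members lay below 0, with a median of -0.21 and a range from -0.93 to 0.41. Rpl37, which binds ribosomal RNA inside the large subunit, had the lowest difference of all members, reading 1233 in wild type and 635 in the mutant (log2 -0.93). It was read by a single probe set of the kind that can cross-hybridise (suffix _x_at). It passed 2-fold after quantile normalization (log2 -1.04) and just passed it after loess correction. Rpl39, an X-linked gene for a small protein that lines the tunnel through which the new chain leaves, gave 92.3 and 55.4 (log2 -0.71). Its probe set was dim. With 16 added to every intensity, Rpl39 was at -0.58, just short of 1.5-fold, and 2 members were at least 1.5-fold lower. Rpl11, which with Rpl5 and the 5S RNA forms a particle that can bind and inhibit Mdm2, gave 4048 and 2809.5 (log2 -0.50). These were the members furthest below 0 in this subunit, and all 3 were read by 1 measured probe set each. Rpl5 had no probe set of its own.

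Rpl27 followed with 6813 and 4841 (log2 -0.47), and its 3 probe sets lay between -0.48 and -0.36. Rpl35, at the rim of the tunnel exit, gave 9307 and 7130.1 (log2 -0.36), and its 5 measured probe sets between -0.50 and -0.24. For these genes all probe sets lay on the same side of 0. Rpl37a gave 7007 and 5540.2 (log2 -0.31). Rpl19, an exit rim protein, gave 5313 and 4209 (log2 -0.31). The P stalk, a flexible arm that recruits the elongation factors, was represented by Rplp2 (8370.0 and 6602, log2 -0.32) and Rplp0, its base (7425 and 6295, log2 -0.21). Both stalk genes were lower by a similar amount, and Rplp1 had no probe set of its own.

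Rpl7a (log2 -0.22), Rpl10a (log2 -0.20), Rpl8 (log2 -0.14), Rpl14 (log2 -0.11) and Rpl6 (log2 -0.10) formed the middle of the subunit. Rpl4, whose loop reaches into the exit tunnel, gave 6020.3 and 5618 (log2 -0.076). Rpl13a gave 10967 and 10346 (log2 -0.060), Rpl27a gave 815 and 772 (log2 -0.054), and Rpl7 gave 6719.97 and 6448 (log2 -0.036). By their brightest probe sets, Rpl4, Rpl13a, Rpl27a and Rpl7 were nearly level between the arrays. The other probe sets of Rpl13a lay between -0.62 and -0.44, and those of Rpl7 at -0.24 and -1.02.

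Only 3 measured members lay above 0. Rpl38, known from mouse mutants in which the translation of Hox messenger RNAs is impaired, gave 8123 and 8061 (log2 0.013). Rpl22, a protein of the tunnel exit known for its role in T cell development, gave 6927 and 6835 (log2 0.0047). Its other probe sets, 1448398_s_at and 1416603_at, were at 0.14 and -0.45, so its direction depended on the probe set. Rpl12, a protein at the base of the stalk, gave 35.8 and 46.8 (log2 0.41) from a dim probe set, the highest value of the 43 members. Without centring, Rpl38 was at -0.011 and Rpl22 at -0.019.

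In the small subunit, all 21 measured members lay below 0, with a median of -0.16 and a range from -0.80 to -0.017. Rps15, a protein of the head of the subunit, gave 5639.6 and 3179 (log2 -0.80), and its other probe set -0.20. It was the small subunit member furthest from 0 and the only one of the 21 past 1.5-fold. Rps27 gave 26.7 and 17.6 (log2 -0.58), just short of that size, from a probe set close to the threshold. Rps19, the gene most often mutated in Diamond-Blackfan anaemia, gave 5241 and 4006 (log2 -0.36). Rps10 gave 7850.4 and 6136 (log2 -0.33), and its 5 measured probe sets lay between -0.999 and -0.33. Rps9 gave 7760 and 6067 (log2 -0.33), with its 3 probe sets between -0.56 and -0.23.

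Rps25 (404 and 334, log2 -0.25) and Rps20 (9821 and 8495, log2 -0.19) were head proteins with smaller differences. Rps3, at the entry of the messenger RNA channel, gave 7663 and 6711 (log2 -0.17). Rps6, the substrate of the S6 kinases downstream of mTOR, gave 1854 and 1636 (log2 -0.16). Rps14, the gene whose loss causes the anaemia of the 5q deletion syndrome, gave 7961 and 7212 (log2 -0.12), and its other probe set was at -0.024. Rps6 and Rps14 both lay near the family median of -0.17.

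Rpsa, which is also known as a laminin receptor, gave 9391 and 8557 (log2 -0.11). Rps28 (log2 -0.11), Rps7 (log2 -0.099) and Rps26 (log2 -0.087) were similar. Rps4x, the other X-linked member measured, gave 8043 and 7572 (log2 -0.063). Rps2 gave 6720.3 and 6443 (log2 -0.037), Rps18 gave 10369 and 10029 (log2 -0.024) and Rps29 gave 9601 and 9333 (log2 -0.017). The members nearest to 0 in this subunit included these very bright probe sets.

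The median of the large subunit minus that of the small subunit was -0.050. Its sign turned with the probe set rule: it was 0.074 with the mean of all measured probe sets of a gene, 0.046 with the dimmest measured probe set and 0.023 when probe sets annotated to several genes were included. After loess correction the medians were -0.10 for the large and 0.00095 for the small subunit, and 10 of 21 small subunit members lay below 0. With the loess curve fitted without ribosomal probe sets, the medians were -0.12 and -0.033.

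**Figure D2:**
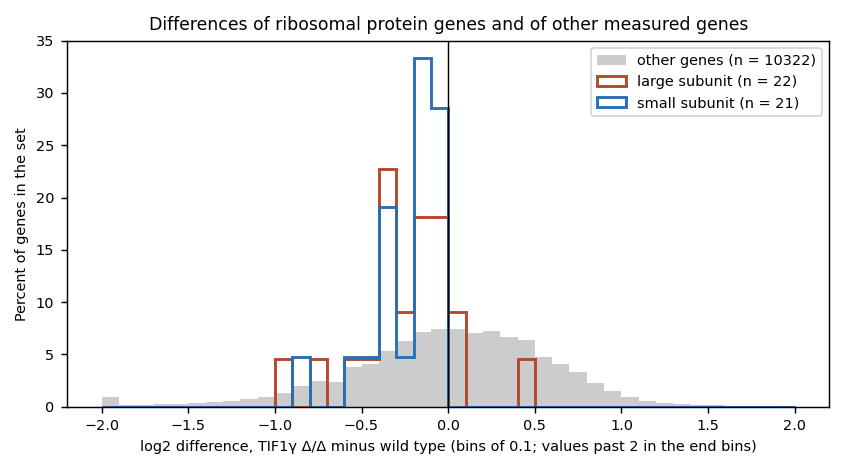
Distribution of the log2 difference, TIF1γ Δ/Δ minus wild type, for large subunit members (n = 22), small subunit members (n = 21) and the other measured genes (grey, n = 10322), as percent of each set in bins of 0.1. Both subunits pile up between -0.4 and 0, while the other genes spread widely to either side of 0.

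Groups within the ribosome were described by the same values. Their counts stand beside 93.0% of all members and 46.9% of all genes, of any signal, below 0. After loess correction these shares were 58.1% and 48.6%. For the 40S head, 9 of 14 listed genes were measured and all 9 lay below 0, with a median of -0.19, but after loess correction the median was -0.0068 and 5 of 9 lay below 0. For the exit tunnel and its rim, 5 of 9 listed genes were measured, with a median of -0.31 and 4 below 0, and -0.19 and 3 of 5 after loess. For the genes mutated in Diamond-Blackfan anaemia, 11 of 19 were measured, all 11 below 0 with a median of -0.33, and 6 of 11 with a median of -0.17 after loess. By brightest probe set, no gene of the anaemia list reached 1.5-fold, beside 13.2% of all genes lower and 14.3% higher. Without centring 1 was at least 1.5-fold lower, beside 14.1% of all genes. Other probe sets of Rps10 (log2 -0.999), Rps24 (log2 -0.88 and 0.85) and Rps7 (log2 -0.74) passed that size.

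Paralogues with restricted or inducible expression are listed apart, and the 2 measured on both arrays lay within the range of the members (-0.93 to 0.41). Rpl3l, known from muscle, and Rpl39l, known from testis, were under the threshold on both arrays, at 6.22 and 0.927 and at 14.3 and 6.99. Rps4l gave 54.5 and 41.1 (log2 -0.38). Rps27l, a paralogue of Rps27 known as a p53 target, gave 2686 and 1903 (log2 -0.47), and its 3 probe sets lay between -0.65 and -0.43. Rps16, a head protein, was the third member measured on neither array, at 0.700 and 0.267. Its only probe set of its own is dim, and further probe sets of several genes name it too, so this value is no statement about Rps16 itself.

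Probe sets of the same gene often disagreed in size. Of 21 members with at least 2 measured probe sets, 18 had all of them on the same side of 0, and Rpl37a, Rpl22 and Rps24 did not. Rpl41, a very short peptide of the large subunit, gave 6727 and 5088 (log2 -0.38) with its brightest probe set. Its probe sets 1433530_at (314 and 101, log2 -1.61) and 1454639_x_at (580 and 123, log2 -2.22) were more than 2-fold lower. Rps20 was at -0.19 with its brightest probe set and -1.53 with 1450417_a_at (131 and 44.7). Rpl7 was at -0.036 with its brightest and -1.02 with 1426163_x_at (3897 and 1891). In these 3 genes a dimmer probe set was far lower than the brightest.

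Rps24 ranged from -0.88 (1456628_x_at, 4839 and 2579) to 0.85 (1455195_at, 33.0 and 58.6), with -0.15 for its brightest probe set. Rpl37a ranged from -0.80 (1416217_a_at, 2318 and 1306) to 0.86 (1416218_x_at, 40.8 and 72.7). Both positive values came from dim probe sets. Rps7 was at -0.10 and -0.74 with probe sets of similar brightness (7379 and 6776, and 7183 and 4236). Rpl13a was at -0.060 with its brightest probe set and between -0.62 and -0.44 with the other 3.

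Over the 21 members, 32 of 45 dimmer probe sets (71.1%) were lower than the brightest probe set of the same gene, by a median of -0.17. Among other genes this was so for 57.1% of 7321 dimmer probe sets, with a median of -0.085. Of the 88 member probe sets measured on both arrays, 82 lay below 0. At least 2-fold lower were 4 of the 88, which belonged to Rpl41, Rps20 and Rpl7. Among all genes it was 4.65%, but that share counts only the brightest probe set of each gene. A share over all probe sets was not computed.

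The size of the difference varied with the signal. The 18 member probe sets with a geometric mean of at least 7000 had a median of -0.12, the 37 between 4000 and 7000 of -0.30, and the 16 between 1000 and 4000 of -0.50. The 6 between 100 and 1000 had a median of -0.59, and the 11 under 100 of -0.44, with 8 of the 11 below 0, so the series did not continue into the lowest band. Probe sets of other genes had medians of -0.079 (9 probe sets), -0.083 (151), 0.026 (1208), 0.14 (7329) and -0.048 (8953) in the same bands. Bright probe sets of other genes thus leaned below 0 too, with 69.5% below 0 between 4000 and 7000 and 77.8% at or above 7000. In the bands below 4000 the member probe sets lay further from those of other genes.

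**Figure D3:**
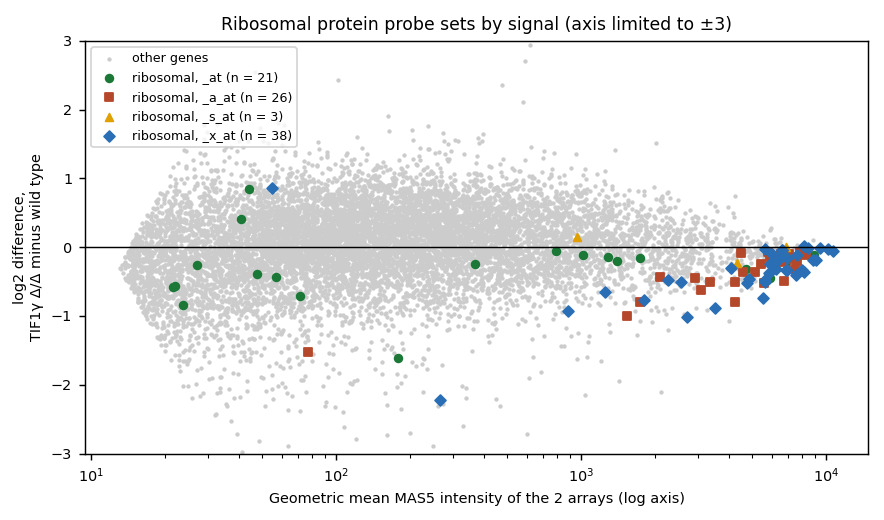
Log2 difference, TIF1γ Δ/Δ minus wild type, of the 88 measured ribosomal protein probe sets by Affymetrix suffix, against the geometric mean MAS5 intensity of the 2 arrays on a log axis, with the brightest probe set of each other gene in grey. Ribosomal probe sets approach 0 at the right edge and reach below -0.5 between 1000 and 4000.

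By Affymetrix class, member probe sets with the suffix _at had a median of -0.26 (21), those with _a_at of -0.34 (26) and those with _x_at, which can cross-hybridise, of -0.32 (38), while the 3 with _s_at had a median of 0.0047. For other genes the medians were 0.056, -0.033, -0.036 and 0.079. Without _s_at and _x_at probe sets, 38 members were measured, with a median of -0.25. Then 36 lay below 0, beside 46.6% of all genes in the same setting. At least 1.5-fold lower were 6 of the 38, beside 13.2% of all genes, and 1, Rps24 (log2 0.85), was at least 1.5-fold higher, beside 14.7%. The 2 members 2-fold apart were Rpl41 (log2 -1.61) and Rps20 (log2 -1.53).

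Members with CCGGAAG in a promoter window had a median of -0.25 (19 measured, 18 below 0) and those without it of -0.18 (18 measured, 16 below 0). The ranges, -0.93 to 0.013 and -0.80 to 0.41, overlapped between -0.80 and 0.013. The 4 windows with these letters in capitals belong to Rpl37 (log2 -0.93), Rpl41 (log2 -0.38), Rps10 (log2 -0.33) and Rpl38 (log2 0.013).

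**Figure D4:**
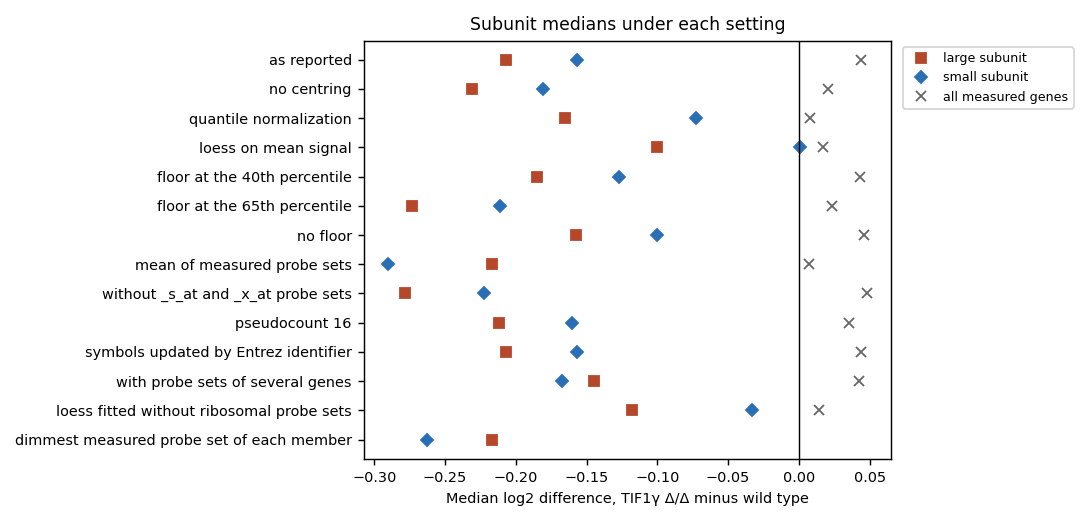
Median log2 difference of large subunit members, small subunit members and all measured genes under the reported setting and each alternative. The medians of the subunits lie below that of all genes in each row where all 3 are drawn, and come nearest to it after loess correction (-0.10 and 0.00095, beside 0.017).

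Of the non-ribosomal genes with pyrimidine tracts at the start of their messenger RNA, or listed with them, 19 of 23 were measured. Below 0 lay 13 (68.4%, beside 46.9% of all genes), with a median of -0.10. After loess correction the median was 0.017 and 9 of 19 lay below 0 (47.4%, beside 48.6% of all genes). At least 1.5-fold lower were 3 of the 19, beside 13.2% of all genes, and at least 1.5-fold higher 1, beside 14.3%. After loess 1 was lower and 2 were higher, beside 13.8% and 12% of all genes. The 3 lower before loess were Eif3k (log2 -0.78), Fau (2987 and 1910, log2 -0.62) and Naca (6082 and 3973, log2 -0.59). Fau encodes a ubiquitin-like protein fused to a small subunit protein, and Naca is a chaperone of new chains. The elongation factor gene Eef1a1 gave 7479 and 7284 (log2 -0.014). Eif4b, a helper of the helicase that unwinds messenger RNA, was the 1 gene at least 1.5-fold higher (517 and 958, log2 0.91), and Eef2, which drives translocation, gave 2337 and 3327 (log2 0.53).

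The initiation factor genes Eif3e, Eif3f, Eif3h, Eif3k, Eif3l, Eif4a2 and Eif4b were counted in the preceding list, from -0.78 (Eif3k) to 0.91 (Eif4b). Of 25 other initiation factors measured, 8 lay below 0 (32.0%, beside 46.9% of all genes). The median was 0.099, beside 0.044 over all genes. After loess correction the median was 0.087 and 11 of 25 lay below 0, beside 48.6% of all genes. After quantile normalization 11 lay below 0, beside 49.4%. Then 1 was at least 1.5-fold lower, beside 14.1% of all genes, against none before. The 2 that were at least 1.5-fold higher, beside 14.3% of all genes, were Eif3b (482 and 920, log2 0.96) and Eif2s3x (387 and 620, log2 0.70). Eif4ebp1, the mTOR-controlled inhibitor of cap binding, gave 1377 and 931 (log2 -0.54).

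Genes for proteins of the mitochondrial ribosome, which is separate from the cytosolic one, were lower by median of brightest probe sets than the cytosolic members. Of 76 measured, 65 lay below 0 (85.5%, beside 46.9% of all genes), and the median was -0.33. At least 1.5-fold lower were 17, beside 13.2% of all genes, and at least 1.5-fold higher 2, beside 14.3%. Mrpl33 gave 1855 and 603 (log2 -1.60), Mrps11 gave 146 and 72.8 (log2 -0.98) and Mrps24 gave 1106 and 556 (log2 -0.97). The higher genes were Mrpl37 (57.5 and 97.3, log2 0.78) and Mrps2 (529 and 822, log2 0.66). In contrast to the cytosolic members, the median stayed away from 0 after loess correction, at -0.42. Then 68 of 76 lay below 0, beside 48.6% of all genes. The median was -0.44 after quantile normalization. The 2 families were not matched for signal: summed wild type intensity was 55783 over the 76 genes and 254216 over the 46 cytosolic members. Cytosolic member probe sets had medians of -0.59 between 100 and 1000 and of -0.50 between 1000 and 4000.

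**Figure D5:**
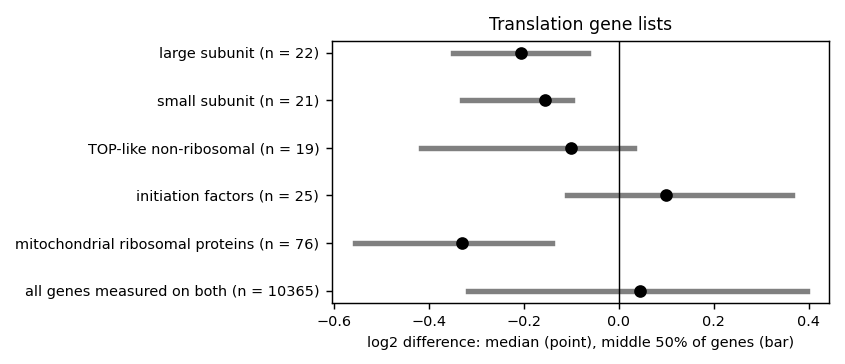
Median log2 difference, TIF1γ Δ/Δ minus wild type (points), and the middle 50% of genes (bars) for the subunits of the cytosolic ribosome, other translation lists and all measured genes. The mitochondrial ribosomal proteins lie lowest, at a median of -0.33, and the initiation factors highest, at 0.099 beside 0.044 for all genes. The lists were not matched for signal.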

How the data were processed

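Per the submitters' processing notes the authors deposited probe set intensities made with MAS5; the sources used here give no version. Biotin-labelled cRNA was made from 25 ng of total RNA, per the labels' protocols. The mean after trimming 2% at each end was 100 on each array, so arrays had been scaled. Of 45101 probe sets, 64 controls were left out; in the platform annotation 34945 had a single gene, 932 had several and 9160 had none. Probe sets with several genes named no gene. The centring shift was -0.024 over 20445 probe sets.

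The members, lists and sizes were chosen with earlier results of these data known. The text names the members with the largest differences, the brightest and dimmest, those under the threshold, the special groups and probe sets that disagree; nearly all other members are given as values. Alternatives covered scaling, threshold, probe set rule, pseudocount and symbols. The steps were tested on simulated data. Python 3.11.15, numpy 2.4.6, pandas 2.3.3, statsmodels 0.14.6 and matplotlib 3.10.9 were used. Protein sequences were not used here.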

Additional observations from a re-analysis of the deposited data

Results flagged for a closer look

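Probe sets annotated to several genes, at least 1 of them a ribosomal protein gene and the others mostly pseudogenes, were outside the comparison because no gene can be named from them. There were 110, and 28 symbols of the family occurred in these alone. On both arrays 99 were measured, with a median log2 difference of -0.18, and 89 of the 99 lay below 0. They ranged from -1.32 (1455981_at, 1373 and 541) to 0.73 (1459631_at, 15.4 and 25.1). At least 2-fold lower were 5, beside 4.65% of all measured genes, and none was 2-fold higher, beside 2.62%. The shares of all genes count only the brightest probe set of each gene, so they are not like for like.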

How the results depend on the processing

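No paired analysis was possible because each genotype has 1 array. The count of members below 0 was 25 of 43 after loess and 64 of 70 with probe sets of several genes. The family median was -0.059 after loess and -0.090 with loess fitted without ribosomal probe sets. The large subunit median was -0.10 after loess. The small subunit median was 0.00095 after loess, -0.033 with loess fitted without ribosomal probe sets, -0.29 with the mean of measured probe sets and -0.26 with the dimmest. Large minus small was 0.074 with the mean of measured probe sets, 0.046 with the dimmest and 0.023 with probe sets of several genes. Members 2-fold apart numbered 1 after quantile normalization, after either loess and with the mean of measured probe sets, and 2 without _s_at and _x_at probe sets or with the dimmest. Members 1.5-fold lower numbered 6, and 1.5-fold higher 1, without _s_at and _x_at probe sets, and 8 and 2 with the dimmest. Each other alternative moved a median by at most 0.1 and kept its sign, and kept a count within 1.5 times. The use of probe sets of several genes, of the dimmest probe set and of the loess without ribosomal probe sets was chosen after seeing the data. The causes were not tested. Signal near the upper end of the arrays and the single array per genotype limit all values.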

Other observations

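Relatives of the ribosomal proteins outside the naming rule were measured on both arrays. Rps3a1, a small subunit protein, read 9459.6 in wild type and 8711 in the mutant (log2 -0.095). Rpl22l1, a paralogue of Rpl22, gave 4506 and 3680.3 (log2 -0.27). Rpl7l1 gave 776 and 808 (log2 0.081), and Rsl24d1, a factor of large subunit assembly, gave 298 and 306 (log2 0.063). Rps19bp1, which binds Rps19, gave 264 and 169 (log2 -0.62).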
